A study of Mus musculus with 12 samples.

Results

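Macrophages are resident in the cochlea, where they lie among the fibrocytes of the lateral wall, along vessels and near the auditory nerve, clear cell debris and take up material for degradation in lysosomes. They depend on signals through the receptor encoded by Csf1r, and in many tissues they are the main source of C1q, the protein that recognizes its targets and starts the classical complement pathway. In the mouse brain C1q also marks synapses for removal. The genes described here are C1qa, C1qb and C1qc, which encode the chains of C1q, C3, the central complement component, the receptor genes Csf1r, Cx3cr1 and Mrc1, and Cd68, Aif1 and Lyz2. They were chosen by name, and for each gene the array entry with that single symbol and the highest mean over 12 arrays was used. An entry was found for 9 of the 10 genes, of 19938 genes with a single symbol, and all 9 were among the 16306 genes tested. C3 had no entry of a single symbol and is not analysed here.

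RNA came from cochleae of C57BL/6 mice at postnatal day 8 (P8) and on the day of birth (P0), with no treatment and no gene altered in either group. After removal of the bony otic capsule, the remaining tissue, which held the lateral wall, the spiral limbus and the organ of Corti, was cut into base, middle and apex, and the pieces of many ears were pooled. The dissection was done 2 times, so every combination of age and region (6 groups) had 1 array from a first and 1 from a second dissection set. Arrays were assigned to a set by the year in their titles, which do not name a set. The 3 regions of 1 age and set were cut from the same animals. The question was which genes differ along the cochlea from base to apex, and between the ages. In such whole tissue, fewer cells of a type and less RNA per cell cannot be told apart.

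Signals are given on the log2 scale, on which a difference of 1 is a doubling, and the array medians lay between 7.21 and 7.29. A gene was tested where its mean signal exceeded 6 in at least 1 group. The number of arrays limited the precision. Taken over genes and groups, the SD between the 2 replicate arrays was 0.18 at the median, which is not the residual SD of the fit. The arrays of 1 dissection set deviated together, with correlations across genes of 0.54 to 0.92 over 15 pairs of groups. The values of the first set are always given before those of the second. Differences were tested with limma on the means of the 6 groups, with Benjamini-Hochberg adjustment over all tested genes, and again with the set as a replicate block (set block). Of 38 further macrophage genes with an entry, 35 exceeded the level of 6 in at least 1 group. So did 16306 of the 19938 genes with a single symbol, and this count alone therefore does not show macrophages. The mean over 7 osteoblast genes was 8.49 to 9.97 on the 6 P8 arrays and 6.86 to 7.55 on the 6 P0 arrays. The first-set array of the P0 apex had the highest of these P0 means.

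C1qb, C1qc and C1qa stand next to each other on mouse chromosome 4, with no other gene between them in RefSeq. RefSeq promoter windows of 300 bases, from 250 bases before to 50 bases after the start, were available on build GRCm38.p6 for 7 of the 9 genes, and Csf1r and C1qa were not examined. They were searched for GAGGAA on both strands (TTCCTC on the printed strand for a match on the other), the core bound by PU.1, a transcription factor required for macrophages to form. It was found in 5 of the 7, against 28.3% of all 32851 promoter windows, which is a description of the letters only. The windows of C1qb (chr4:136886151-136886450, minus strand), C1qc (chr4:136892865-136893164, minus strand), Cd68 (chr11:69666121-69666420, minus strand) and Lyz2 (chr10:117282223-117282522, minus strand) are printed 5′ to 3′ with each match in capitals. C1qb and C1qc are shown as neighbours in the C1q cluster, Cd68 for its matches on both sides of the start, and Lyz2 as a window without one.
C1qb: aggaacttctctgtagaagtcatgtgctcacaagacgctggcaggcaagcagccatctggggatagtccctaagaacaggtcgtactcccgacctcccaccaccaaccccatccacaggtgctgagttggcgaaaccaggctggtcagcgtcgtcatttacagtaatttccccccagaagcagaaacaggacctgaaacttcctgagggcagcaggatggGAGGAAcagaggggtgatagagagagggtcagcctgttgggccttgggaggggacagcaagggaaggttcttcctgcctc
C1qc: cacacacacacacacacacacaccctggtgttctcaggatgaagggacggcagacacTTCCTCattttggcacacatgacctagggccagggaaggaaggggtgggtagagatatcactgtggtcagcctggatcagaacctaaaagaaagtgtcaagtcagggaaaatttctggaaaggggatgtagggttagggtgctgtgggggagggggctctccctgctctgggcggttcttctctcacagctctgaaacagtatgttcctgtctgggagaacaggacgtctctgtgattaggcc
Cd68: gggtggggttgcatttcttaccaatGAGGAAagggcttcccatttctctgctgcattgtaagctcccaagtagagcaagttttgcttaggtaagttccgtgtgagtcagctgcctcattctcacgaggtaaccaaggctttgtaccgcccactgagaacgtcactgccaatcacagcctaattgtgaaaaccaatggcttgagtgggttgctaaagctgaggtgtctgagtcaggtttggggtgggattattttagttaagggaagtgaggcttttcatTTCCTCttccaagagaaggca
Lyz2: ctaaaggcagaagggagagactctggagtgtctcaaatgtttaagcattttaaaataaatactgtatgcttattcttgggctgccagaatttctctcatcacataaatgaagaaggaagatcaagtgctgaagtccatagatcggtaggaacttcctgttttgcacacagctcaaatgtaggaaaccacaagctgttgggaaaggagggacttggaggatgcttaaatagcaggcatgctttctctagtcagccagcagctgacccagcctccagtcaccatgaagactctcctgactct
The match of C1qb began 30 bases upstream of the start, and that of C1qc 193 bases upstream. Cd68 held 1 match 225 bases upstream and 1 at 29 bases downstream. The window of Mrc1 held 3 matches, that of Aif1 held 1, and those of Lyz2 and Cx3cr1 held none.

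Macrophage and complement genes had higher mean signals at P8 than at P0. The mean difference over the 3 regions was positive in all 9 genes, with a median of 0.44 against −0.0014 over all tested genes, of which 49.8% were positive. It was largest in Csf1r, the receptor for CSF1 and IL34, at 0.85, which is 1.80-fold. Csf1r, C1qc, Cx3cr1 and Cd68 had adjusted p-values under 0.05. None of the 9 reached the 2-fold difference that the call between ages also required.

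Beginning with the receptors, Csf1r had signals of 9.60 and 9.22 in the base, 9.78 and 9.29 in the middle, and 9.40 and 8.96 in the apex at P8. At P0 it had 8.42 and 8.39 in the base, 8.76 and 8.51 in the middle, and 8.66 and 8.39 in the apex. All 6 P8 arrays stood above all 6 P0 arrays. The difference was 0.85 ± 0.13 (SE, 6 arrays per age; limma, adjusted p = 0.00251), with 0.98 in the first set and 0.73 in the second, and it kept an adjusted p under 0.05 without any 1 of the 12 arrays (highest 0.00966).

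Cx3cr1, the receptor for the chemokine fractalkine, is expressed by microglia and many tissue macrophages. At P8 its signals were 8.66 and 8.57 in the base, 8.66 and 8.53 in the middle, and 8.43 and 8.37 in the apex. At P0 they were 7.98 and 8.17 in the base, 8.11 and 8.27 in the middle, and 7.92 and 8.14 in the apex. The ages did not overlap, and the spread within each age was the narrowest of the 9 genes, with an SD of 0.12 at P8 and 0.13 at P0. The difference was 0.44 ± 0.08 (limma, adjusted p = 0.00637), at most 0.0243 without 1 array.

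Mrc1 encodes the mannose receptor CD206, which takes up glycoproteins and marks many resident macrophages. Its signals at P8 were 9.47 and 8.97 in the base, 9.40 and 9.01 in the middle, and 8.89 and 8.78 in the apex. At P0 they were 8.60 and 8.90 in the base, 8.68 and 8.97 in the middle, and 8.48 and 8.63 in the apex. The ages overlapped, and nearly all of the difference lay in the first set, with 0.67 against 0.09 in the second. Over both sets it was 0.38 ± 0.12 (limma, adjusted p = 0.0692, and 0.0204 with the set as a replicate block).

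The chains of C1q differed in how far the ages stood apart. C1qc had signals of 9.30 and 9.07 in the base, 9.13 and 9.12 in the middle, and 8.66 and 8.66 in the apex at P8. At P0 it had 8.53 and 8.28 in the base, 8.48 and 8.48 in the middle, and 8.57 and 8.01 in the apex. The ages did not overlap, although the lowest P8 array, in the apex, exceeded the highest P0 array, also in the apex, only slightly. The difference was 0.60 ± 0.11 (limma, adjusted p = 0.00575), at most 0.0203 without 1 array, with 0.50 in the first set and 0.69 in the second.

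For C1qb the dissection sets stood further apart than the ages. Its P8 signals were 8.50 and 9.45 in the base, 8.20 and 9.55 in the middle, and 8.00 and 9.28 in the apex. Its P0 signals were 8.05 and 9.01 in the base, 8.31 and 9.08 in the middle, and 8.17 and 8.76 in the apex. The second set was higher in 6 of 6 groups, by 0.98 on average. The difference between ages was 0.27 ± 0.35 (limma, adjusted p = 0.654, and 0.0537 with the replicate block), with 0.06 in the first set and 0.47 in the second.

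C1qa had signals of 8.73 and 8.21 in the base, 8.33 and 8.37 in the middle, and 7.88 and 8.00 in the apex at P8. At P0 it had 8.34 and 7.82 in the base, 8.16 and 7.59 in the middle, and 8.45 and 7.68 in the apex. In the first set the P0 apex stood above the P8 middle, and the ages overlapped. The difference was 0.25 ± 0.18 (limma, adjusted p = 0.395, and 0.111 with the replicate block). It lay in the second set, with 0.50 against −0.0017 in the first.

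Cd68, a glycoprotein of lysosomes and endosomes in phagocytes, had P8 signals of 8.49 and 8.24 in the base, 8.51 and 8.15 in the middle, and 8.16 and 7.83 in the apex. Its P0 signals were 7.54 and 7.83 in the base, 7.72 and 7.77 in the middle, and 7.94 and 7.70 in the apex. The ages overlapped, since the P8 apex array of the second set lay below the highest P0 array, that of the apex in the first set. The difference was 0.48 ± 0.11 (limma, adjusted p = 0.0181). It was not kept under 0.05 when any of 4 arrays of the first set (P8 base, P8 apex, P0 base and P0 middle) was left out, where the adjusted p was 0.0519 to 0.0537.

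Lyz2, the lysozyme of macrophages and other myeloid cells, digests bacterial cell walls. At P8 it had signals of 8.53 and 9.20 in the base, 7.98 and 8.97 in the middle, and 7.66 and 8.68 in the apex. At P0 it had 7.44 and 8.09 in the base, 7.37 and 8.00 in the middle, and 7.55 and 7.95 in the apex. Like C1qb it was higher in the second set in 6 of 6 groups, by 0.73 on average, and within each set every P8 array stood above every P0 array. The difference of 0.77 ± 0.26 had an adjusted p of 0.0780 from limma, and of 4.95e-05 with the replicate block.

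Aif1, which encodes the actin-binding protein Iba1 used to stain microglia, was near the level of 6 on all arrays. Its P8 signals were 6.94 and 6.35 in the base, 6.68 and 6.35 in the middle, and 6.48 and 6.33 in the apex. Its P0 signals were 6.07 and 6.32 in the base, 6.20 and 5.96 in the middle, and 6.39 and 6.06 in the apex. The ages overlapped over both sets but not within either set. The difference was 0.35 ± 0.13 (limma, adjusted p = 0.103, and 0.0138 with the replicate block).

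**Figure D1:**
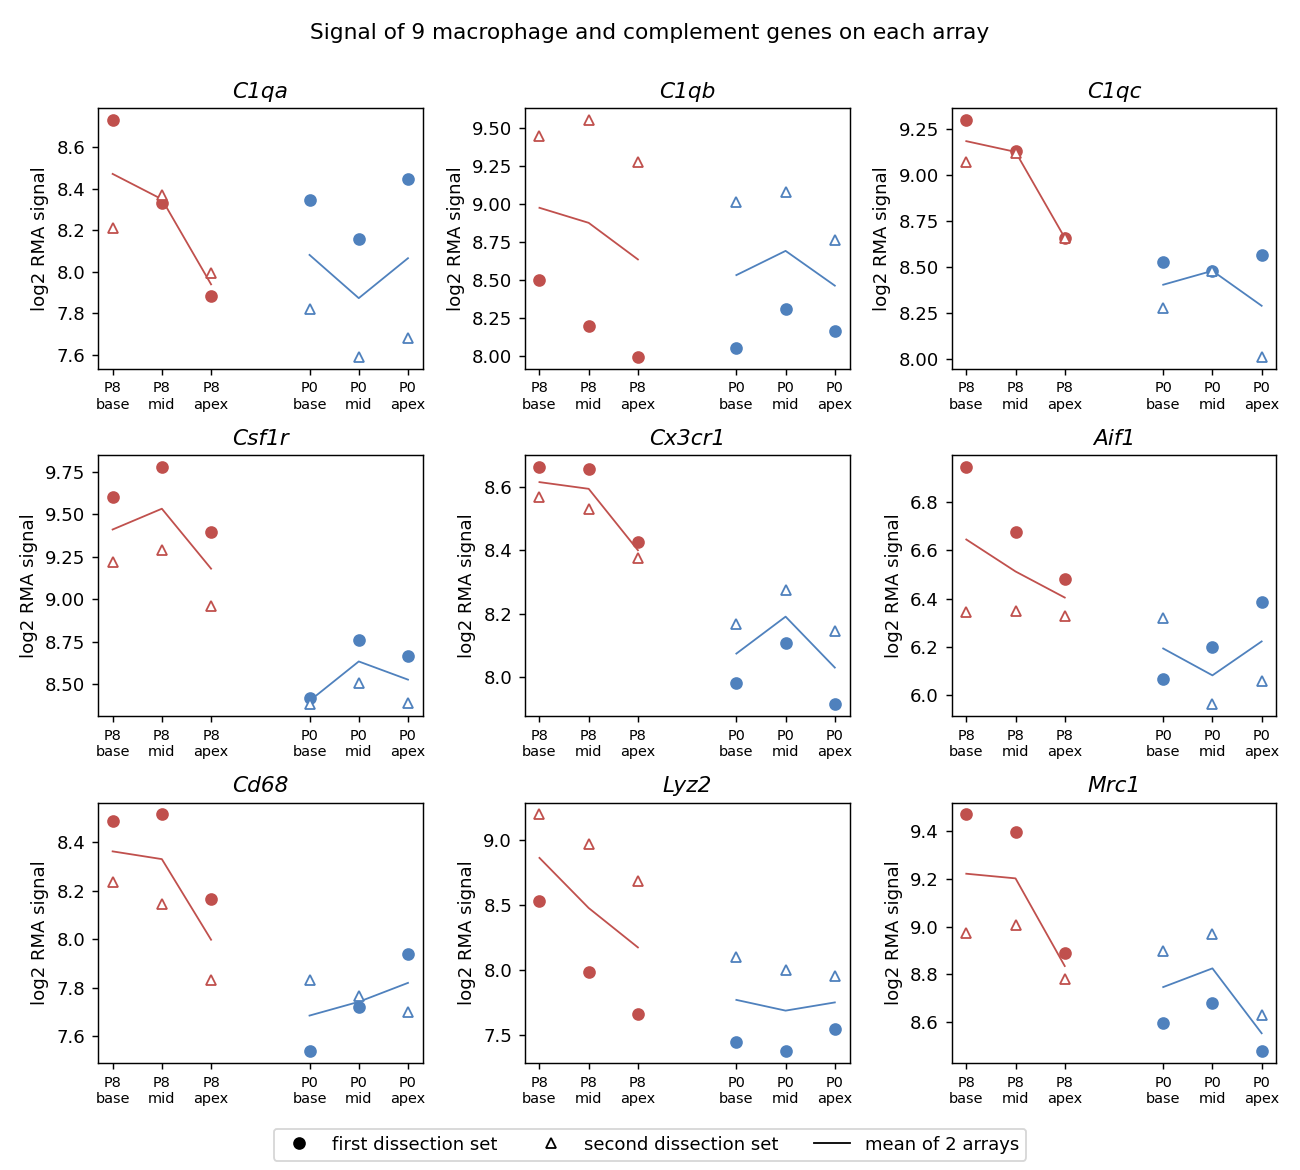
Log2 signal (y axis, a separate range for each gene) of 9 macrophage and complement genes in base, middle (mid) and apex at P8 (red) and P0 (blue), where circles mark the first dissection set, triangles mark the second and lines join the means. Csf1r, C1qc and Cx3cr1 have all 6 P8 arrays above all 6 P0 arrays, and the sets of C1qb stand apart by 0.98 on average.

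Counted over the genes, 0 of 9 passed the adjusted p and the 2-fold difference, against 3.2% of all tested genes. With an unadjusted p under 0.05 and the 2-fold difference it was also 0 of 9, against 552 of 16306 genes. With the adjusted p alone, 4 of 9 were higher and none lower, against 9.52% of all tested genes higher and 9.19% lower. With the set as a replicate block these were 7 of 9 higher, all but C1qa and C1qb, against 19.5% of all genes higher and 21.8% lower. The ages did not overlap in 3 of 9 genes, against 8.08% of all genes with P8 above P0, and within each set they did not overlap in 5 of 9, against 14.0%. In both sets the mean difference was positive in 8 of 9 genes, against 35.9% of all genes.

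The age difference rested on few pools, and all p-values between ages, those of other genes further on included, count the arrays of 1 pool as separate samples unless the pool is named. With the pool as a random replicate block 1 of 9 genes, Csf1r, had an adjusted p under 0.05 (0.0187), against 5.47% of all genes in either direction. With the 3 regions of each pool averaged, which leaves 2 pools per age, none did (limma, adjusted p = 0.208 to 0.890), against 0.0307% of all genes. Over all tested genes, 3050 had an adjusted p under 0.05 without a block, 892 with the random block and 5 with pools averaged.

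By region, the differences of P8 minus P0 had larger values in the base and middle than in the apex. The median over the 9 genes was 0.54 (base), 0.48 (middle) and 0.28 (apex), and all 9 were positive in the base and in the middle, and 8 in the apex. The largest difference was that of Lyz2 in the base, at 1.096 ± 0.46 (limma, adjusted p = 0.316). The 1 negative value was that of C1qa in the apex, at −0.13 ± 0.31 (limma, adjusted p = 0.879).

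In the base, where a call needed an adjusted p under 0.05 and a 1.5-fold difference, 1 of 9 genes was higher, against 3.82% of all tested genes called in either direction. This was Csf1r, at 1.01 ± 0.23 (2.01-fold; limma, adjusted p = 0.0489), and the call was kept in 2 of the 12 fits without 1 array, those without a P8 middle array (adjusted p up to 0.304). In the middle 0 of 9 passed, against 4.02%, and in the apex 0 of 9, against 4.53%. With an unadjusted p under 0.05 and the 1.5-fold difference, 3 of 9 passed in the middle, against 1517 of 16306 genes. In the apex 1 of 9 did, against 1637. With the set as a replicate block, 4 of 9 were higher in the base, against 10.5% of all genes called, and the same 4, Csf1r, C1qc, Cd68 and Lyz2, in the middle, against 11.1%. In the apex only Csf1r was higher with that block, by 0.65 ± 0.23 (limma without the block, adjusted p = 0.180, and 0.00511 with it), against 12.0% of all genes called. Whether the age difference itself differed between apex and base is given with the gradients below.

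**Figure D2:**
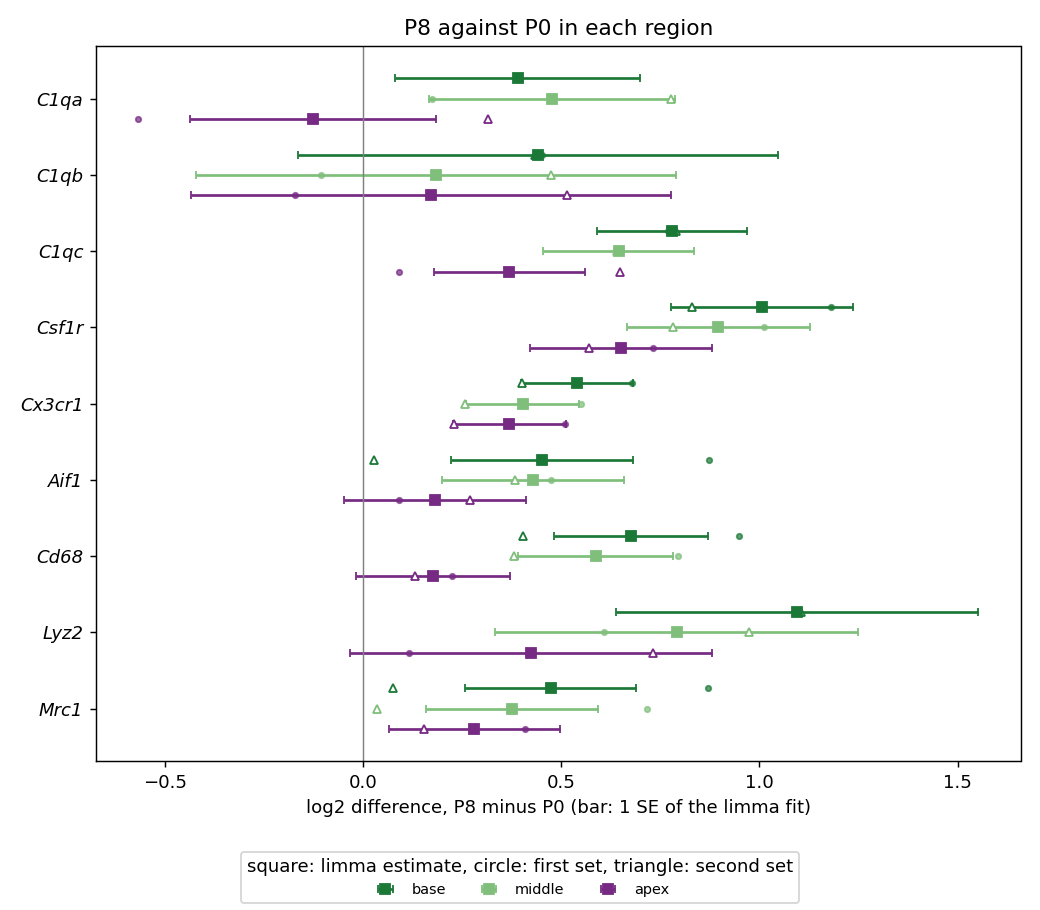
Log2 difference of P8 minus P0 (x axis) in base, middle and apex for each gene, as the limma estimate (square) with 1 SE (bar), the first dissection set (circle) and the second (triangle), some of which lie under the squares. Most values lie right of 0, with Csf1r at 1.01, 0.90 and 0.65 in base, middle and apex.

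Along the cochlea at P8, all 9 genes were lower in the apex than in the base in both dissection sets, against 31.8% of all tested genes. The median difference of apex minus base was −0.36, against 0.0028 over all tested genes. The 3 largest were those of Lyz2, C1qa and C1qc. No gene passed the test, so these are values and not calls.

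Lyz2 had P8 signals of 7.66 and 8.68 in the apex against 8.53 and 9.20 in the base. The difference was −0.69 ± 0.46 (limma, adjusted p close to 1), −0.86 in the first set and −0.52 in the second. Its level stepped down from base through middle to apex in each set at P8. With the pool of animals as a fixed replicate block it had an adjusted p of 0.00452 from limma and a 1.61-fold difference. It was the 1 gene of 9 called then, against 458 of 16306 genes, where 32 were called without a block.

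C1qc had P8 signals of 8.66 and 8.66 in the apex against 9.30 and 9.07 in the base, and base and middle differed little. The difference was −0.52 ± 0.19 (limma, adjusted p = 0.898, and 0.0372 with the pool as a fixed block, at 1.44-fold). C1qa differed by −0.53 ± 0.31 (limma, adjusted p close to 1), with −0.85 in the first set and −0.22 in the second. The difference was −0.39 ± 0.22 in Mrc1, −0.36 ± 0.19 in Cd68 and −0.34 ± 0.61 in C1qb. The smallest were −0.24 ± 0.23 in Aif1, −0.23 ± 0.23 in Csf1r and −0.21 ± 0.14 in Cx3cr1, whose interval of 95% ran from −0.54 to 0.11.

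Of the 9 genes 0 passed at P8, against 0.196% of all tested genes, and also 0 with the set as a replicate block (1.58%). With an unadjusted p under 0.05 and the 1.5-fold difference it was 0 of 9 as well, against 318 of 16306 genes. Bone genes were likewise lower in the apex at P8, in 7 of 7 osteoblast genes, with a median of −0.70. Ifitm5, made by osteoblasts, differed by −1.51 ± 0.23 (limma, adjusted p = 0.0537, and 9.23e-04 with the set as a replicate block). The mean of the 7 osteoblast genes was 9.97 and 9.68 in the P8 base, 9.49 and 9.19 in the P8 middle, and 9.38 and 8.49 in the P8 apex. Endothelial genes were lower in the apex in 9 of 10, with a median of −0.20. A list of 15 genes typical of the cochlea went the other way, with 10 higher in the apex, 5 lower and a median of 0.31. The part of bone and vessels in the values of the macrophage genes was not tested.

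At P0 the genes showed no such order. The difference of apex minus base was positive in 3 of 9 genes and negative in 6, with a median of −0.02 and a range of −0.19 in Mrc1 to 0.13 in Cd68. Only Csf1r was higher in the apex in both sets, and only Cx3cr1 and Mrc1 were lower in both. None of the 9 passed the test (limma, adjusted p close to 1 in each), nor had an unadjusted p under 0.05, against 0.00613% of all tested genes called, and none passed with the set as a replicate block (0.675%). The interval of 95% was widest in C1qb, from −1.44 to 1.30, and narrowest in Cx3cr1, from −0.37 to 0.28, and the difference seen at P8 lay within the interval at P0 for every gene but Cd68.

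The change of the gradient, P8 minus P0, was negative in all 9 genes, with a median of −0.35 against −0.03 over all tested genes, and negative in both sets in 6 of 9, against 30.4% of all genes. It was largest in Lyz2, at −0.67 ± 0.65, followed by C1qa at −0.52 ± 0.44 and Cd68 at −0.50 ± 0.28. None of the 9 passed this test (limma, adjusted p close to 1 in each; 0 also with either block and at an unadjusted p under 0.05), and neither did any other tested gene without a block (0.0%), against 0.178% with the set as a replicate block. A difference between apex and base in how the genes changed with age was therefore not shown.

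**Figure D3:**
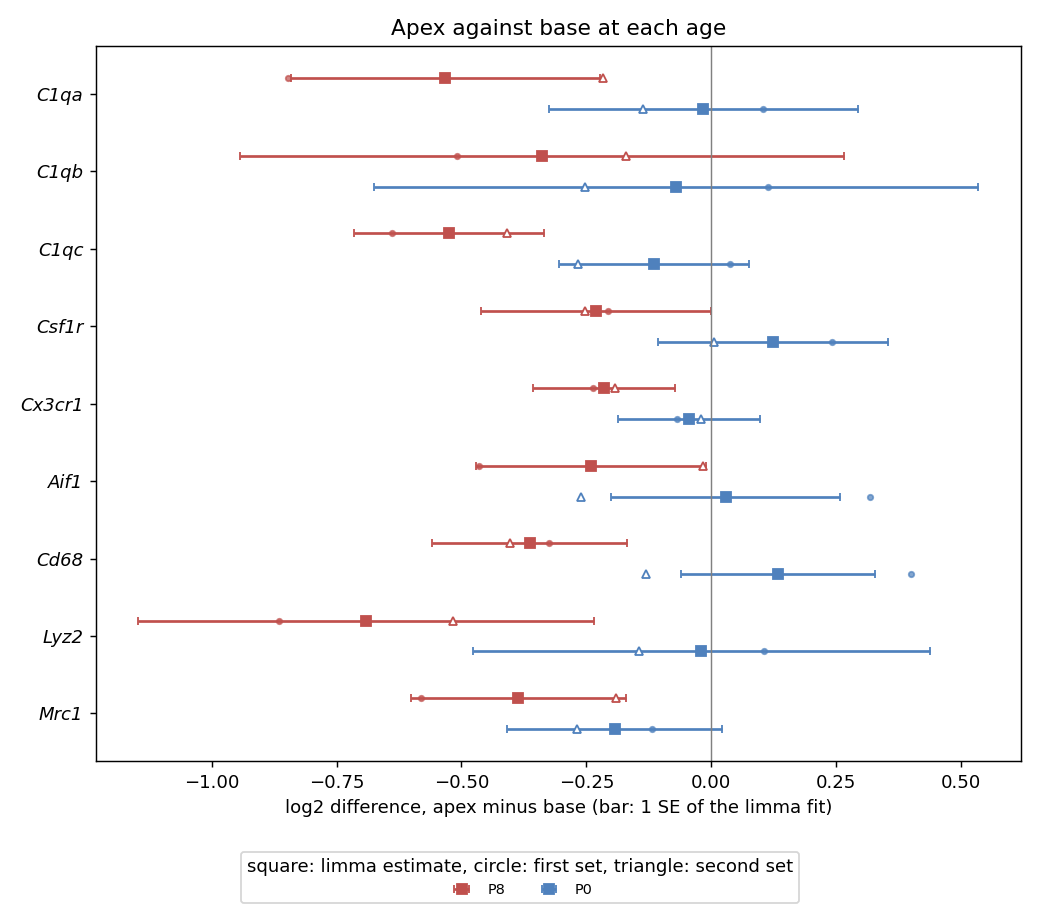
Log2 difference of apex minus base (x axis) at P8 (red) and P0 (blue) for each gene, as the limma estimate (square) with 1 SE (bar), the first dissection set (circle) and the second (triangle). All P8 sets lie left of 0, from −0.86 to −0.02, while the P0 sets lie on both sides.

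Put in order of the group means, the highest group was the P8 base in 8 of 9 genes and the P8 middle in Csf1r. Of the 5 steps between neighbours in this order, 2 were larger than the SDs of both neighbours in C1qc and in Cx3cr1, 1 in Csf1r, Cd68 and Mrc1, and 0 in the other 4 genes. For Csf1r the step was that between the P8 apex and the P0 middle, at 9.18 ± 0.31 and 8.64 ± 0.18 (SD, n = 2 each). In C1qc and Cx3cr1 the steps lay between P8 middle and P8 apex, and between P8 apex and P0 middle, and in Cd68 and Mrc1 between P8 middle and P8 apex. All other steps were within the SD of at least 1 neighbour. These SDs include the offset between the dissection sets, which was largest in C1qb and Lyz2, and within each set the levels of Lyz2 did step down along the cochlea at P8, all above those at P0.

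The 9 genes followed each other more closely once the offset between the dissection sets was removed. With the mean of each set subtracted, the correlations between pairs of the 9 genes over the 12 arrays lay between 0.35 and 0.96, with a median of 0.80 over 36 pairs, and without it between −0.24 and 0.93, with 3 pairs below 0. The highest was that of Csf1r with Cx3cr1 (0.96), and C1qc with Lyz2 had 0.94, while C1qa with C1qb had 0.82 with and −0.24 without the subtraction. These arrays share pools, ages and regions, so the values are a description. The set offset itself ran both ways, at 0.98 in C1qb and 0.73 in Lyz2, against −0.37 in C1qa and −0.31 in Csf1r, which was lower in the second set in 6 of 6 groups.

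The genes outside the 9 whose pattern was most like the mean of C1qa, C1qb and C1qc over the 12 arrays, with each set's mean subtracted, were Mpc1, Snx7, Ltbr, Cdc42ep4, Emp3, Acat1, Cystm1, Tmem53, Plscr2 and Kdelr3, with r of 0.99 to 0.96. None of them is a macrophage gene of the lists used here. Without the subtraction r was 0.97 for Emp3 and 0.94 for Snx7, but 0.19 for Ltbr and 0.39 for Acat1. Among all tested genes C1qc ranked 25th, C1qb 27th, Lyz2 63rd and C1qa 134th in this likeness, and Csf1r, Cd68, Aif1, Cx3cr1 and Mrc1 ranked between 1354 and 2507. C1qa, C1qb and C1qc are part of that mean.

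Most other macrophage genes were also positive at P8 minus P0. Of 35 tested, 31 were higher at P8 and 4 lower, with a median of 0.38. By the adjusted p with a 2-fold difference 1 was called higher and 1 lower, against 2.06% and 1.14% of all tested genes. Ly86, which encodes the MD-1 protein of myeloid cells, had 9.14 and 9.42 in the base, 9.29 and 9.39 in the middle, and 8.94 and 9.15 in the apex at P8. At P0 it had 7.73 and 8.53 in the base, 7.49 and 8.57 in the middle, and 7.85 and 8.49 in the apex. It rose by 1.11 ± 0.22 (limma, adjusted p = 0.00842).

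Lyve1, a hyaluronan receptor of lymphatic vessels and of some resident macrophages, went the other way. Its P8 signals were 7.77 and 7.69 in the base, 7.53 and 7.45 in the middle, and 7.20 and 7.15 in the apex. Its P0 signals were 8.22 and 9.02 in the base, 8.18 and 9.25 in the middle, and 8.03 and 8.29 in the apex. All P8 arrays were below all P0 arrays, and the signal fell by 1.03 ± 0.20 (limma, adjusted p = 0.00720), more in the second set than in the first. Mrc1, which is often found on the same macrophages, had a positive value.

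With the adjusted p alone, 12 of these 35 genes were higher and 2 lower, against 9.52% and 9.19% of all tested genes, and with the set as a replicate block 22 and 2, against 19.5% and 21.8%. Chosen after their values were seen, examples are Cybb, the oxidase subunit of phagocytes, at 0.98 ± 0.12 (limma, adjusted p = 6.19e-04), Adgre1, an adhesion receptor used as a macrophage marker, at 0.78 ± 0.20 (limma, adjusted p = 0.0275), and F13a1 at −0.68 ± 0.18 (limma, adjusted p = 0.0330). Without 1 array, Cybb kept an adjusted p under 0.05 in 12 of 12 fits, Adgre1 in 5 and F13a1 in 4. Cybb and Mpeg1 were also called higher in the base and in the middle alone, as were 2.34% and 2.37% of all tested genes. Apex against base at P8, 27 of the 35 were negative, with a median of −0.12, and 0 were called, against 0.196% of all tested genes. With the set as a replicate block 1 was called, against 1.58%. This was Tmem119, which was lower (−0.79 ± 0.26, limma, adjusted p = 0.770 without and 0.0241 with the block).

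Among 25 other tested complement genes 18 were higher at P8 and 7 lower, with a median of 0.24. C3ar1 and Vsig4 were listed both here and among the other macrophage genes, so the lists were not fully separate. Of the 25, 2 were called higher and none lower, against 2.06% and 1.14% of all tested genes. C2, the protease that joins C4b in the classical pathway, rose by 1.54 ± 0.12 (2.91-fold; limma, adjusted p = 7.14e-05). Its signals were 8.43 and 8.49 in the base, 8.08 and 8.39 in the middle, and 8.02 and 8.56 in the apex at P8, against 6.87 and 6.95 in the base, 6.61 and 7.01 in the middle, and 6.71 and 6.58 in the apex at P0. C4b rose by 1.003 ± 0.12 (limma, adjusted p = 7.37e-04), with 7.67 and 7.82 in the P8 base against 6.74 and 6.71 in the P0 base. C2 and C4b act just after C1q in the same pathway, and C2 was called in each of the 3 regions.

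By the adjusted p alone 7 of the 25 complement genes were higher and 1 lower, against 9.52% and 9.19% of all tested genes. With the set as a replicate block 12 were higher and 3 lower, against 19.5% and 21.8%. Named after their values were seen, Serping1, the inhibitor of C1, was at 0.75 ± 0.12 (limma, adjusted p = 0.00286), C1s1, a protease of the C1 complex, at 0.69 ± 0.10 (limma, adjusted p = 0.00193), and the lower one, Csmd1, a complement inhibitor of neurons, at −0.59 ± 0.09 (limma, adjusted p = 0.00180). Between apex and base 0 of the 25 genes were called at either age, with medians of −0.04 at P8 and −0.07 at P0.

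Of 8 tested genes of the CSF1, fractalkine and related signals, 5 were higher and 3 lower, and none passed the 2-fold rule. Csf1, the ligand of Csf1r, was at −0.18 ± 0.07 (limma, adjusted p = 0.137, and 0.0425 with the set as a replicate block), and Il34, its other ligand, at 0.08 ± 0.09 (limma, adjusted p = 0.580). Cx3cl1, the ligand of Cx3cr1, had 0.53 ± 0.08 (limma, adjusted p = 0.00173). Tgfb1 had 0.53 ± 0.09 (limma, adjusted p = 0.00282), and the chemokine Cxcl12 was lower, at −0.52 ± 0.08 (limma, adjusted p = 0.00313). By region, Cx3cl1 was called higher in the base (2.34% of all tested genes), Tgfb1 higher in the middle (2.37%) and Cxcl12 lower in the apex (2.1%). All 5 were named after their values were seen.

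Genes of related functions were mostly positive too. All 14 lysosome genes were positive at P8, with a median of 0.39, 3 of them with an adjusted p under 0.05 (9.52% of all genes higher) and 11 with the set as a replicate block (19.5%). Of 8 antigen presentation genes 7 were positive, 3 with an adjusted p under 0.05 and 5 with the set as a replicate block. Neither list held a gene past the 2-fold rule.

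Markers of other cells also differed between the ages. All 7 osteoblast genes were higher at P8, with a median of 1.86, and 6 were called by the adjusted p with a 2-fold difference. Of 7 osteoclast genes 6 were higher and 1 lower, and 2 were called. These shares stand against 2.06% of all tested genes called higher. The 2 osteoclast genes were Acp5, at 1.27 ± 0.13 (limma, adjusted p = 2.42e-04), and Mmp9, at 1.14 ± 0.19 (limma, adjusted p = 0.00370). Osteoclasts, which resorb bone, come from the macrophage lineage and need Csf1r, and the list's mean was 7.49 to 8.06 on the P8 arrays and 7.23 to 7.33 on the P0 arrays. Ibsp, a protein of bone matrix, rose by 5.22 ± 0.36 (limma, adjusted p = 3.34e-05), with 10.2 to 12.1 on the P8 arrays and 5.65 to 8.08 on the P0 arrays, the highest of which was the P0 apex of the first set. Without that array the differences of Csf1r, C1qc, Cx3cr1 and Cd68 were 0.90, 0.69, 0.40 and 0.52, each with an adjusted p under 0.05 from limma (highest 0.0292).

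With the pool as a random replicate block, adjusted p-values between ages stayed under 0.05 in limma for Ly86 (0.0246), Cybb (0.0282), C2 (0.00237), C4b (0.0210), Csmd1 (0.0482), Acp5 (0.0172) and Ibsp (4.59e-04). They did not for Lyve1 (0.0544), Mmp9 (0.0837), Adgre1 (0.129), F13a1 (0.189), Serping1 (0.0713), C1s1 (0.111), Cx3cl1 (0.110), Tgfb1 (0.114) and Cxcl12 (0.173). With pools averaged none of these 16 genes was under 0.05, the lowest being Ibsp at 0.0595.

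Granulocyte markers were near the level of 6, with 7 of 12 tested, a mean of 6.37 to 6.48 on the P8 arrays and 6.19 to 6.40 on the P0 arrays, and a median difference of 0.11. Lymphocyte markers, with 5 of 12 tested, had a median of 0.28 and means of 6.78 to 7.002 at P8 and 6.23 to 6.70 at P0. Red blood cell genes had a median of 0.22 over 7 genes, and endothelial genes 0.16 over 10. Monocyte and dendritic cell markers had 0.12 over 3 genes, and mast cell markers −0.31 over 3. By the adjusted p alone 2 lymphocyte, 1 granulocyte, 1 red blood cell and 1 endothelial gene were higher, against 9.52% of all tested genes. With the set as a replicate block 4 lymphocyte, 4 endothelial, 3 red blood cell and 2 granulocyte genes were higher (19.5% of all genes). With that block 1 endothelial and 2 mast cell genes were lower (21.8%). No gene of these 6 lists passed the 2-fold rule, and the part of these cells in the values of the 9 genes was not tested.

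**Figure D4:**
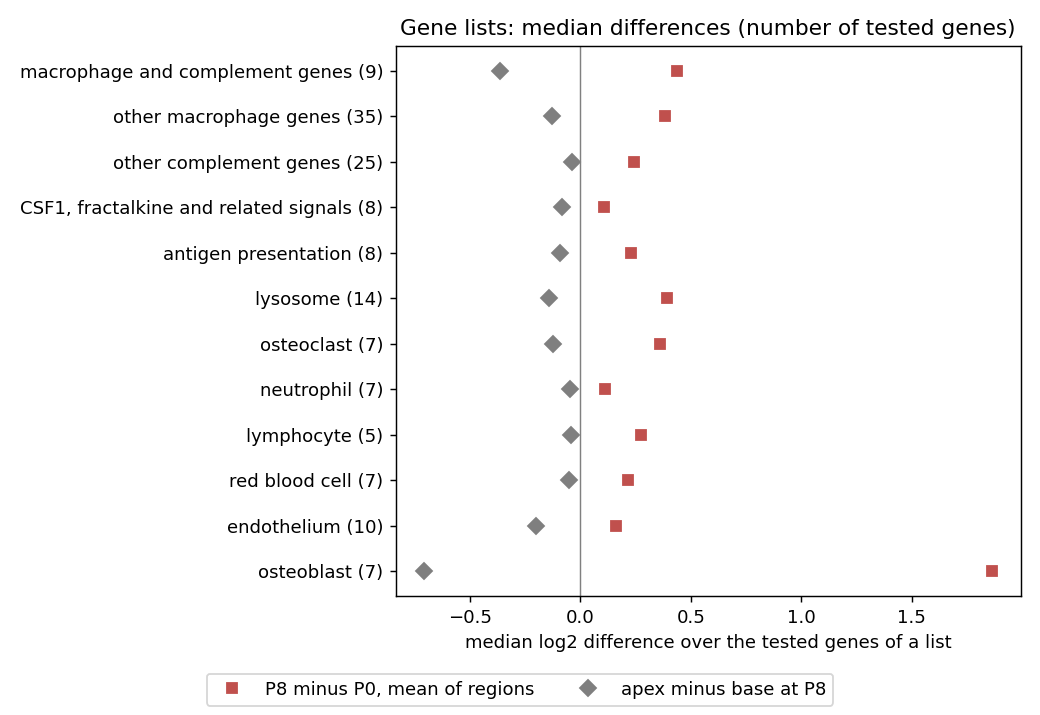
Median log2 difference (x axis) over the tested genes of the lists shown (number in brackets), for P8 minus P0 over the mean of regions (red squares) and for apex minus base at P8 (grey diamonds). The lists of mast cell markers, of monocyte and dendritic cell markers and of cochlear genes are not drawn. The 9 genes lie at 0.44 and −0.36, other macrophage genes at 0.38 and −0.12, and osteoblast genes at 1.86 and −0.70.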

How the data were processed

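RNA of 12 samples of cochlear tissue (base, middle and apex of 4 pools of animals) was measured on Affymetrix Mouse Gene 1.0 ST arrays. The deposited values are log2 signals that the authors made with Affymetrix Command Console Software 1.1 and RMA, whose version is not given in the sources used here, and they were used as deposited. Of 35556 entries 21789 had 1 gene symbol, 1621 several and 12146 none. The entry with the highest mean over the arrays stood for its gene, and 16306 genes with a mean log2 signal over 6 in 1 or more of the 6 groups entered the tests.

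Means of the 6 groups (2 arrays each) were fitted with limma 3.58.1 in R 4.3.3, and contrasts were adjusted by Benjamini-Hochberg over all tested genes. The fit was tried on simulated data with independent noise on each array. Those data held no deviations shared by a set or pool, so the trial cannot show how such deviations affect the p-values. A call needed an adjusted p under 0.05, with a fold of 2 for P8 over P0 as the mean of 3 regions, of 1.5 within regions or ages, and none for the change of the gradient. Sample titles carry a year and do not name a dissection set, and the arrays of the earlier year were taken as the first set here. Deviations of arrays of the same set correlated by 0.544 to 0.916 over 15 pairs of groups, so a second fit took the set as a replicate block. The sources used here do not say whether both years shared an RMA run. Dissection and processing therefore cannot be told apart in the offsets between sets. Further alternatives were the pool as a block, pools averaged, other scalings, no filter, the mean of all entries of a gene, limma with trend and robust, the methods' t-test and each array left out. Python 3.11.15 was used for tables and plots (pandas 2.3.3, numpy 2.4.6, matplotlib 3.10.9, scipy 1.17.1).

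The genes and lists were chosen with earlier results of these data known. Of each other list, up to 4 genes with the largest difference among those called between ages were to be named, and up to 8 of the complement and ligand lists. This was not followed throughout. The called osteoblast genes Phex, Alpl and Dmp1 and the called cochlear genes Slc26a5, Otos, Tecta and Kcnq1 were not described. Promoter sequences are from RefSeq (GRCm38.p6). List genes without an entry of a single symbol were not analysed here.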

Additional observations from a re-analysis of the deposited data

How the results depend on the processing

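The direction of P8 over P0, as the mean of 3 regions, stayed positive in each of the 9 genes without any 1 array, and 0 of 9 passed the 2-fold rule in each of these fits (all genes 501 to 554, against 522). Lowering the required fold, chosen after seeing the data, gave 2 of 9 genes at 1.5-fold (1538 of all genes) and 4 with no fold (3050), and averaging the pools left 5 of all genes. The numbers of arrays and pools limit what these comparisons can show, and levels near 6, as in Aif1, are close to the filter.

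With a replicate block for the dissection set, called members were 4 in the base (1 without the block), 4 in the middle (0) and 1 in the apex (0), and all genes called were 1714 in the base (623), 1805 in the middle (655), 1957 in the apex (738), 110 for apex over base at P0 (1), 257 at P8 (32) and 29 for the change of the gradient (0). With the pool as a fixed replicate block the last 3 were 231, 458 and 151, with 1 member, Lyz2, at P8, and with a random one 171, 339 and 82, with 1 member in the middle. In the base 0 members were called after quantile scaling, median centring, no filter, or trend and robust. The methods' t-test called 2 members in the base and 1 in the middle unadjusted, and 71 and 155 of all genes for apex over base at P0 and P8, and after Benjamini-Hochberg it called 0 members and 0 of all genes in each of these comparisons and in the apex. Trend and robust left 0 of all genes for apex over base at P0, and quantile scaling and median centring gave 1 each for the change of the gradient. The cause of these shifts was not tested.

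Without 1 array, all genes called ranged from 152 to 545 in the base (members 0 to 1), 178 to 557 in the middle (members 0), 245 to 652 in the apex, 1 to 17 for apex over base at P8, and 0 at P0. Directions turned in these fits for single genes. In P8 over P0, C1qb ranged from −0.038 to 0.92 in the base, −0.49 to 0.86 in the middle and −0.47 to 0.81 in the apex, where C1qa ranged from −0.51 to 0.26 and Lyz2 from −0.0855 to 0.93. In apex over base at P8, Aif1 ranged from −0.54 to 0.0586 and C1qb from −0.98 to 0.30. At P0 the ranges were −0.14 to 0.19 in Aif1, −0.40 to 0.37 in C1qa, −0.55 to 0.41 in C1qb, −0.39 to 0.16 in C1qc, −0.0119 to 0.28 in Cd68, −0.0117 to 0.26 in Csf1r, −0.16 to 0.0708 in Cx3cr1 and −0.35 to 0.31 in Lyz2. The change of the gradient ranged from −0.57 to 0.0292 in Aif1, −0.91 to 0.37 in C1qb and −0.44 to 0.0554 in Mrc1.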
